A study of Mus musculus with 6 samples.

Results

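Mest and 9 other imprinted genes of the growth network (Igf2, H19, Dlk1, Meg3, Peg3, Plagl1, Grb10, Ndn and Nnat) were followed across bulk RNA-seq libraries of healing flexor digitorum longus (FDL) tendons. These 10 genes, of 53819 genes listed in the count table, were selected by symbol, and Mest was picked on the basis of its higher counts in DTR libraries of these same data. The difference of the members between DTR and WT is therefore given as a description, without a test. All 10 were listed and all 10 had enough counts to enter the fit of 17496 genes.

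The libraries came from 3 DTR tendons (genotype Scx-Cre+; DTR F/+) and 3 WT tendons (Scx-Cre-; DTR F/+), with 1 tendon in each library. Every animal was a mouse of 10 to 12 weeks that carried the floxed diphtheria toxin receptor, underwent flexor tendon repair and received 5 daily injections of diphtheria toxin (DT) from day 14 to day 18, so the groups differ by Cre. Tendons were harvested at D28 post-surgery, which the sample titles call D28 post-depletion. Scx-Cre acts in every cell with a history of Scleraxis expression, so the receptor is not limited to cells that expressed Scx at the time of the toxin. Total counts ran from 42744138 to 48854310 per library.

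An imprinted gene is transcribed mainly from the copy inherited from one parent, according to DNA methylation laid down in the germ line. Mest, Igf2, Dlk1, Peg3, Plagl1, Ndn and Nnat are known as paternally expressed genes, and H19 and Meg3 as maternally expressed long noncoding RNAs, while Grb10 is maternally expressed in most tissues and paternally in neurons. Many of these genes are abundant in the fetus, decline after birth and are known for effects on growth and on the differentiation of muscle, fat and connective tissue. Gene-level counts do not separate the parental copies, so nothing here measures imprinting itself, and in bulk RNA a change in the number of cells that express a gene cannot be told apart from a change in RNA per cell.

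Sequences are shown for the transcripts the results turn on, from RefSeq on GRCm38.p6. Mest hosts miR-335 in an intron, and H19 carries miR-675 in an exon. The mature sequences follow with the seed, bases 2 to 8, in capitals.
miR-335-5p (chr6:30741314-30741336, plus strand): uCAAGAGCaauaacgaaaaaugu
miR-335-3p (chr6:30741354-30741375, plus strand): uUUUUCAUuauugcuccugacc
miR-675-5p (chr7:142577112-142577133, minus strand): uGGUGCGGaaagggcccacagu
miR-675-3p (chr7:142577078-142577099, minus strand): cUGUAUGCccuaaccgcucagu
The 4 seeds differ from each other. The libraries were made from poly(A) RNA and do not measure mature miRNAs. The miR-335 gene had 0 counts in 5 libraries and 7 in DTR 3, and the miR-675 gene had 0 in all 6. The miR-675 gene shares 84 bp with H19 on the same strand, so reads there could be discarded as ambiguous.

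RefSeq gives Mest an upstream start and a pair of downstream starts 3 bases apart, of which the first is shown. The windows, from 250 bases before to 50 bases after the start, are shown because Mest was the member with the highest fitted difference, with capitals marking TGCCGC on either strand, the letters bound by the imprint-protecting factor ZFP57.
Mest, upstream start (chr6:30733256-30733555, plus strand): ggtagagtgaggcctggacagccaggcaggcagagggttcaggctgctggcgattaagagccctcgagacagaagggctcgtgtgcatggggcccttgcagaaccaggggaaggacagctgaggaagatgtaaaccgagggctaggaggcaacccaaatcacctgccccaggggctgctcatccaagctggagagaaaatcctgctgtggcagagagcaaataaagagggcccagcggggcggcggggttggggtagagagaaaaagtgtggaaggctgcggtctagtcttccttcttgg
Mest, downstream start (chr6:30737800-30738099, plus strand): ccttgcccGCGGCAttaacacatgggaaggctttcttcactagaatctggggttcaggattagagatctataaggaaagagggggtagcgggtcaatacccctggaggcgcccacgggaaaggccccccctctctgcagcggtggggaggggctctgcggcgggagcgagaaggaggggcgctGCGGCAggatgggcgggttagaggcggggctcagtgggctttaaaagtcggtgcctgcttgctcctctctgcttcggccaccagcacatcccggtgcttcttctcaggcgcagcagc
The downstream window held 2 copies of TGCCGC and 17 CpG, and the upstream window held 0 copies and 8 CpG, against a median of 7 CpG over all windows. TGCCGC occurred in 11.61% of 32851 promoter windows. It was not particular to Mest, since Nnat, Igf2, Plagl1, Grb10 and Meg3 each had a window with a copy. The Peg3 window is shown because it held GGGGCCCC (in capitals), the motif of Plagl1, itself a member.
Peg3 (chr7:6730370-6730669, minus strand): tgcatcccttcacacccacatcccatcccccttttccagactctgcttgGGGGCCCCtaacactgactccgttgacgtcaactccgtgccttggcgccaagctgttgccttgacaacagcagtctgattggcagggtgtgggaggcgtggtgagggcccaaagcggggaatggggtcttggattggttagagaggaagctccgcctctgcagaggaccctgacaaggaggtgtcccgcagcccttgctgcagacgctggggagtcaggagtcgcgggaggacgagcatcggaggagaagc
GGGGCCCC occurred in 1.08% of all windows. Windows were found for 9 of the 10 members. A match of letters is a description of the sequence, and gene counts do not say which Mest start was used.

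Mest encodes an alpha/beta-hydrolase-fold protein of the endoplasmic reticulum known from mesoderm and from expanding fat. In TMM-normalized counts (counts scaled to a common library size), Mest stood at 3258, 2846 and 3419 in WT 1 to 3 and at 13561, 7417 and 16578 in DTR 1 to 3. The groups did not overlap, the lowest DTR library being 2.17 times the highest WT library. WT libraries averaged 3174 ± 296 (SD, n = 3), and DTR libraries 12519 ± 4669 (SD, n = 3). The fit gave a log2 fold change of 1.98 (SE 0.30). WT libraries lay close together, with a coefficient of variation of 9.31%, whereas DTR libraries spread over 37.3%.

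**Figure D1:**
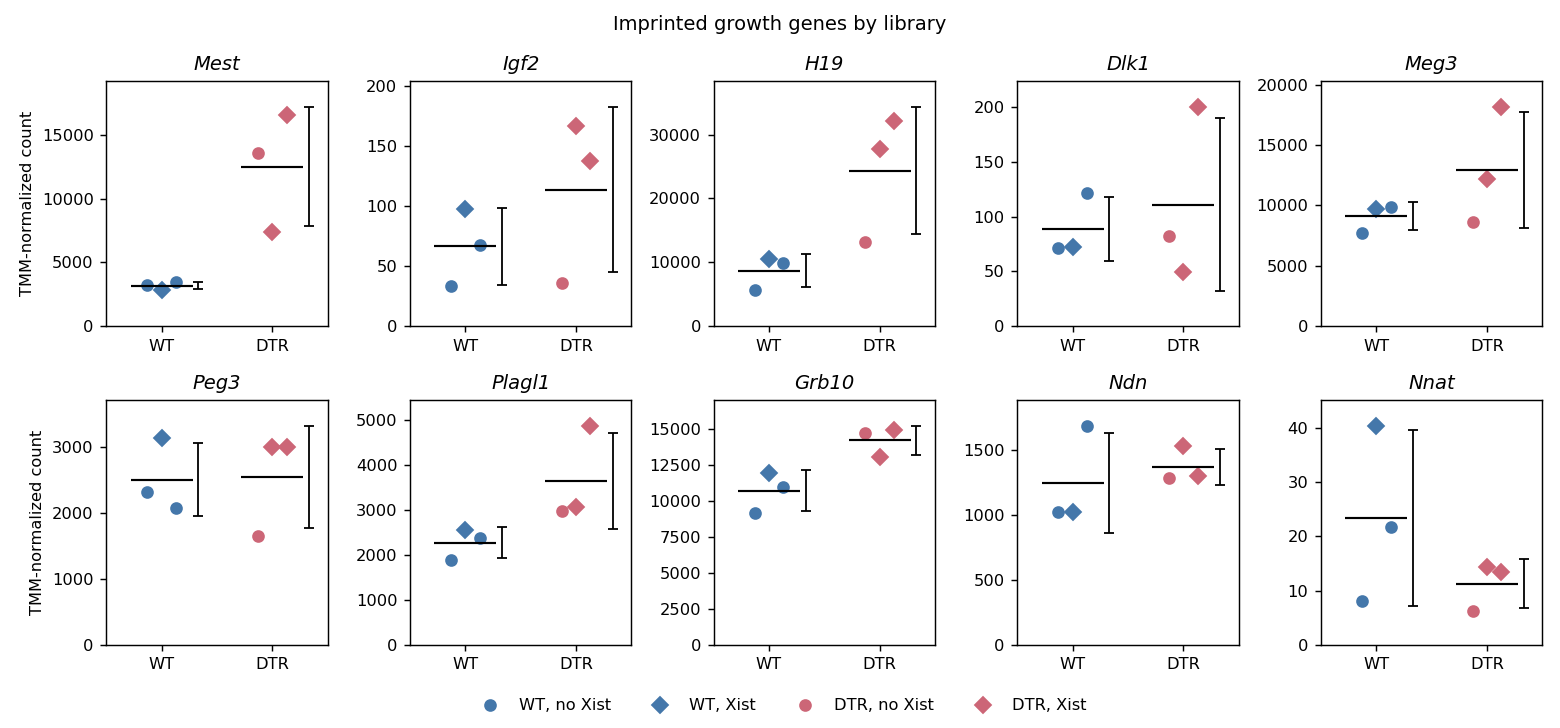
TMM-normalized count of each member (vertical axes from 0) in the 3 WT and 3 DTR libraries. Horizontal lines are means, brackets are 1 SD, and diamonds mark the 3 libraries with Xist counts. Mest, H19, Plagl1 and Grb10 did not overlap between the groups, and the other 6 members did.

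Skeletal muscle RNA also differed between the libraries. The summed counts of 15 adult skeletal muscle genes took 2.57%, 2.31% and 1.87% of all counts in WT 1 to 3 and 0.309%, 2.22% and 0.585% in DTR 1 to 3. DTR 2, which held the most muscle RNA of the DTR group, also held the least Mest, but DTR 1, with the least muscle RNA, held less Mest than DTR 3. With the muscle level as a covariate the log2 fold change of Mest was 1.32, and with each library left out it ran from 1.73 to 2.25. None of the 15 muscle genes was at 0 in all libraries, and the part of muscle in the Mest difference was not tested. The 10 keratinocyte genes took 0.301%, 0.192% and 0.000925% of counts in WT and 0.000904%, 0.00122% and 0.0287% in DTR, and with their level as a covariate Mest was at 2.05. Tendon cell markers took 3.88% to 4.56% of counts in WT and 4.31% to 5.66% in DTR. Of the 10, 8 were fitted higher in DTR, with a median log2 fold change of 0.31. edgeR called 0 of them, and DESeq2 called 1 higher, beside 1.18% of the genes it tested. At an unadjusted edgeR p under 0.05, 3 were higher and 0 lower, beside 5.52% and 5.45% of all genes. Scx, the transcription factor that defines the lineage, stood at 2202, 2703 and 3064 normalized counts across WT 1 to 3 and at 3476, 3407 and 3532 across DTR 1 to 3, without overlap (log2 fold change 0.39, SE 0.12, edgeR adjusted p 0.371). Over all genes tested, 8.96% lay wholly higher in DTR.

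Neighbours of Mest on chromosome 6 were described next. Copg2, which encodes a coatomer subunit and runs antisense to the end of Mest, had 1463 to 1558 normalized counts in WT and 1505 to 1636 in DTR, a log2 fold change of 0.03 (SE 0.08). Per exon length, the ratio of Mest to Copg2 within a library was 2.71, 2.52 and 2.89 in WT and 11.6, 5.89 and 14.3 in DTR. Mest shares 912 bp, or 23.1% of its exon bases, with Copg2 on the opposite strand, and the strand setting of the counting was not given in the sources used here. Klf14, an intronless gene for a Krüppel-like factor, read 8.12, 24.5 and 12.5 across WT 1 to 3 and 63.9, 39.2 and 93.5 across DTR 1 to 3 in normalized counts. Its groups did not overlap, and its log2 fold change was 2.11 (SE 0.51), with an edgeR adjusted p of 0.300 and a DESeq2 adjusted p of 0.00956. Klf14 was named after its values were seen, since its mean level lies under the minimum of 50 set for naming. Cep41, a centrosomal protein gene, had a log2 fold change of 0.68 (SE 0.21) and an edgeR adjusted p of 0.365. Of 36 genes listed as neighbours of the members, 28 were tested. At an unadjusted edgeR p under 0.05, 8 were higher and 0 lower, beside 5.52% and 5.45% of all genes. edgeR called 0, and DESeq2 called 2 higher and 0 lower, beside 1.18% and 1.59%. The list was chosen with earlier results of these data known, so nothing is read from these shares.

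**Figure D2:**
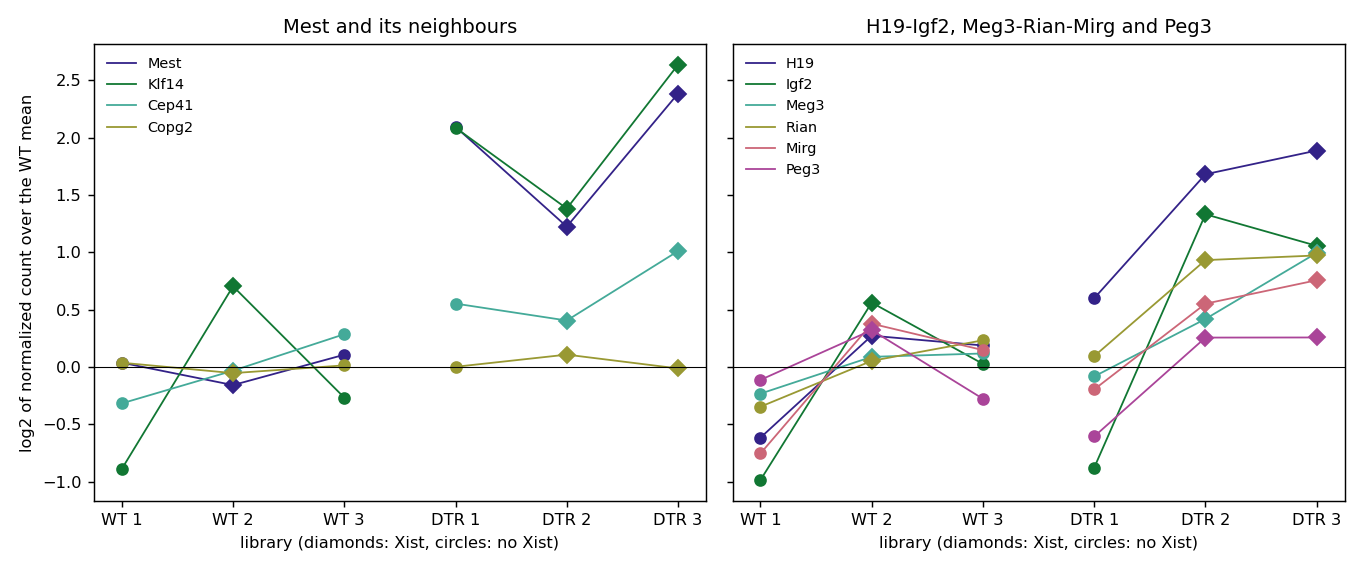
log2 of the normalized count over the WT mean (vertical axis) in each library for Mest and its neighbours (left) and for 6 other imprinted transcripts (right). Lines only join the values of 1 gene within a group, since replicates have no order. Mest and Klf14 stood above their WT means in all 3 DTR libraries, whereas Copg2 stayed near 0.

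H19 and Igf2 share an imprinted domain in which H19 is transcribed from the maternal copy and Igf2, a fetal growth factor, from the paternal copy. H19 stood at 5654, 10473 and 9872 normalized counts in WT and at 13133, 27793 and 32073 in DTR. The groups did not overlap, with DTR 1 closest to WT, and the log2 fold change was 1.49 (SE 0.41). Igf2 was low, at 33.5, 97.9 and 67.6 in WT and 36.1, 167 and 138 in DTR. The groups overlapped, since DTR 1 lay beside the lowest WT library, and the log2 fold change was 0.78 (SE 0.62). Of the exon bases of Igf2, 62.8% are shared in GENCODE vM21 with the same-strand gene Gm49394, which had 0 counts in every library, so reads discarded as ambiguous could lower the Igf2 level. Per exon length, H19 exceeded Igf2 by 393, 249 and 340 times in WT and by 847, 386 and 542 times in DTR.

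Dlk1, a Notch-related transmembrane protein known to hold back fat cell differentiation, and Meg3 belong to a domain on chromosome 12. Dlk1 stood at 71.1, 72.5 and 122 normalized counts in WT and at 82.4, 49.7 and 200 in DTR. DTR held both the lowest and the highest library, and the log2 fold change of 0.33 (SE 0.52) rested on DTR 3, without which it was -0.42. With the muscle covariate it was -0.63. Meg3 stood at 7749, 9681 and 9879 in WT and at 8598, 12171 and 18146 in DTR. The groups overlapped through DTR 1, and the log2 fold change was 0.51 (SE 0.27), or 0.19 without DTR 3. Rian, the noncoding RNA downstream of Meg3 that hosts small nucleolar RNAs, had a log2 fold change of 0.72 (SE 0.27) and an edgeR adjusted p of 0.447. Mirg, a microRNA host at the end of the same domain, had a log2 fold change of 0.42 (SE 0.35). Dio3, which encodes a thyroid hormone deiodinase and, like Klf14, lies under the minimum for naming, read 32.5, 28.2 and 17.7 in the WT libraries and 64.9, 52.6 and 63.7 in the DTR libraries, with an edgeR adjusted p of 0.340.

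Plagl1 encodes a zinc finger protein known to bind several imprinted loci, and Grb10 encodes an adaptor that restrains insulin and IGF receptor signalling. Plagl1 stood at 1887, 2542 and 2371 normalized counts in WT and at 2978, 3070 and 4870 in DTR. The groups did not overlap, though the lowest DTR library was only 1.17 times the highest WT library, and the log2 fold change was 0.68 (SE 0.22). Grb10 stood at 9139, 11964 and 10964 in WT and at 14686, 13062 and 14896 in DTR. Its groups were also apart, with a log2 fold change of 0.41 (SE 0.12).

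Peg3, a zinc finger gene, Ndn, which encodes the growth suppressor necdin, and Nnat, which encodes the small membrane protein neuronatin, showed overlapping groups. Peg3 stood at 2323, 3138 and 2072 (normalized counts) across WT 1 to 3 and at 1650, 3000 and 3002 in DTR, a log2 fold change of 0.02 (SE 0.28). Ndn stood at 1021, 1020 and 1685 in WT and at 1285, 1531 and 1296 in DTR, a log2 fold change of 0.14 (SE 0.21). Nnat had 8.12, 40.5 and 21.8 in WT and 6.18, 14.3 and 13.4 in DTR. It was the 1 member fitted lower, with a log2 fold change of -1.05 (SE 0.63) at a low level, and without WT 2 the value was -0.40.

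**Figure D3:**
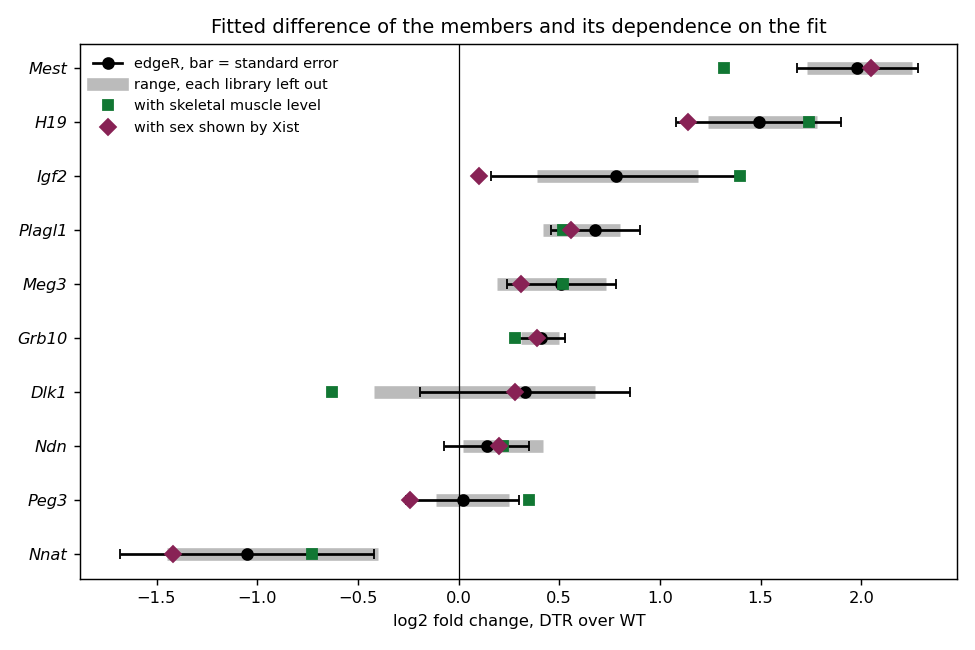
log2 fold change of DTR over WT (horizontal axis) for each member. Points are the edgeR values with standard errors, grey bands are the range with each library left out, squares add the skeletal muscle level and diamonds add the sex shown by Xist. Mest stayed above 1 throughout, whereas Dlk1 and Peg3 crossed 0.

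In counts of members, 4 of 10 lay wholly higher in DTR and 0 wholly lower, beside 8.96% and 7.85% of all genes tested. The rule used this contrast, so nothing is read from those shares. By edgeR with an adjusted p under 0.05, 0% of the genes tested were called (0 of 17496), and 1918 genes had an unadjusted p under 0.05, of which 5.52% of all genes were higher and 5.45% lower. DESeq2 called 1.18% of the genes it tested higher and 1.59% lower; no call is given for the members, whose values the choice of genes used. limma-voom called 0 genes. Nothing in the labels states that tendons of a group came from separate litters or surgery days, and p-values measure only the spread between these animals.

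Xist, the RNA of the inactive X chromosome, was present in WT 2, DTR 2 and DTR 3 and nearly absent from WT 1, WT 3 and DTR 1, in which the Y-linked gene Ddx3y was counted. Sex is not in the labels, and it was not balanced between the groups. Igf2 and Peg3 were the 2 members whose 3 Xist libraries all lay above the other 3, beside 3.28% of all genes tested. Of 63 further imprinted genes tested, described below, 7 showed the same order and 0 the opposite one. In a fit with genotype and sex, the female minus male difference was 1.51 (SE 0.43) for Igf2, 0.69 (SE 0.11) for Peg3 and 0.81 (SE 0.30) for H19 on the log2 scale. For Nnat, at a low level, it was 1.31 (SE 0.50). In that fit the genotype difference was 0.10 for Igf2, 1.14 for H19, -1.42 for Nnat and 2.05 for Mest. This grouping was made from the data, and its part in the differences was not tested further.

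Levels were then compared per length, as library-scaled counts (CPM) per kb of exon. In WT the order ran from H19 at 76.6 ± 23.1 (SD, n = 3) through Grb10 at 25.6, Mest at 17.5 and Meg3 at 11.0 to Ndn at 7.32, Plagl1 at 6.31 and Peg3 at 4.10. Dlk1 at 0.340, Nnat at 0.279 and Igf2 at 0.252 came last. The Igf2 level could be lowered by reads discarded over the 62.8% of its exon bases shared with Gm49394. The WT ranges overlapped between the neighbours Meg3 and Ndn, Ndn and Plagl1, Dlk1 and Nnat, and Nnat and Igf2, so those places are not separated by the spread. In DTR, Mest at 69.0 ranked above Grb10. Within a library, Mest made up 15.7%, 9.34% and 11.4% of the summed per-length level of the 10 members in WT and 29.3%, 11.5% and 19.9% in DTR, so that DTR 2 lay inside the WT range on this share.

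**Figure D4:**
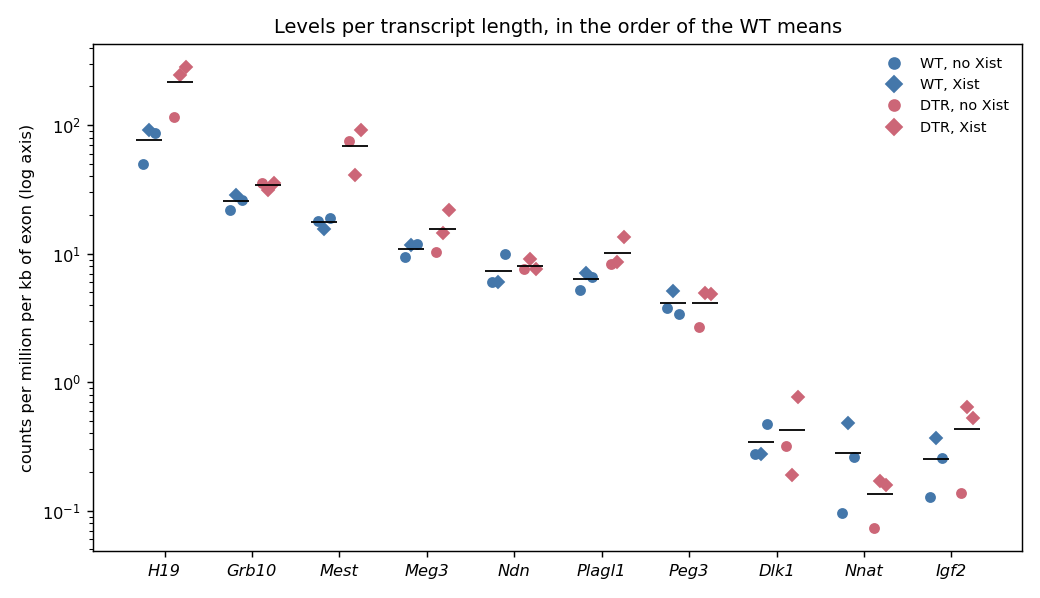
Library-scaled counts (CPM) per kb of exon (log axis) for each member in the order of its WT mean. Points are libraries, horizontal lines are group means, and diamonds mark libraries with Xist. H19 was highest in both groups, and Dlk1, Nnat and Igf2 lay below 1.

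Members that moved together across libraries were described by Pearson correlation of log2 CPM over the 6 libraries. These libraries differed in skeletal muscle and keratinocyte RNA and in the sex shown by Xist. The part of each in the correlations was not tested. H19 and Rian correlated at 0.97, and at 0.97 after the group means were taken out. Igf2 and H19 correlated at 0.80, or 0.96 within groups, and Meg3 and Plagl1 at 0.91, or 0.90 within groups. Values within groups still carry the differences of sex and muscle RNA between libraries of the same group. Mest correlated with H19 at 0.74 over all libraries and at -0.15 within groups, with Grb10 at 0.86 and 0.34, with Plagl1 at 0.84 and 0.50, and with Dlk1 at 0.40 and 0.87. Of 14409 genes averaging 50 or more normalized counts, 285 correlated with Mest at 0.9 or above. The closest were Zfp9 at 0.994, 2810433D01Rik at 0.991, Tubb2b, a beta-tubulin, at 0.990 and Thbs1, the matricellular protein thrombospondin-1, at 0.989. Within groups these 4 stood at 0.959, 0.946, 0.913 and 0.933. They were picked as the highest of 14409 genes over 6 libraries, so their values are a description. Their log2 fold changes were 0.17, 0.78, 0.75 and 0.77, against 1.98 for Mest.

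A wider list of imprinted genes was set beside the members. Of 77 further imprinted genes, 76 were listed and 63 were tested: edgeR called 0, 7 were higher and 5 lower at an unadjusted p under 0.05, and DESeq2 called 2 higher and 0 lower. Over all genes these shares were 5.52% higher and 5.45% lower at that p, and 1.18% and 1.59% by DESeq2. The median log2 fold change was 0.03, against 0.008 over all genes tested. Of the 63, 8 lay wholly higher in DTR and 6 wholly lower, beside 8.96% and 7.85% of all genes tested. Slc22a3, under the minimum for naming like Klf14 and Dio3, was among the lower ones, at -0.97 (SE 0.38, edgeR adjusted p 0.441). The 2 genes that DESeq2 called were Klf14 and Tfpi2, a protease inhibitor of the extracellular matrix. Tfpi2 stood at 449, 390 and 533 normalized counts in WT and at 1081, 671 and 884 in DTR, with an edgeR adjusted p of 0.274. Herc3, a ubiquitin ligase gene, had a log2 fold change of -0.59 (SE 0.18), and Asb4 one of -1.13 (SE 0.43), with edgeR adjusted p-values of 0.365 and 0.429. Ddc was at 0.84 (SE 0.33) and Begain at 0.83 (SE 0.30), with edgeR adjusted p-values of 0.442 and 0.414. Gab1 and Pon2 were lower, at -0.29 and -0.20. The most abundant genes of this list differed little, with log2 fold changes of 0.04 for Dcn (decorin), 0.05 for Gnas and 0.17 for Cd81. Whether the listed genes are imprinted in tendon was not measured.

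**Figure D5:**
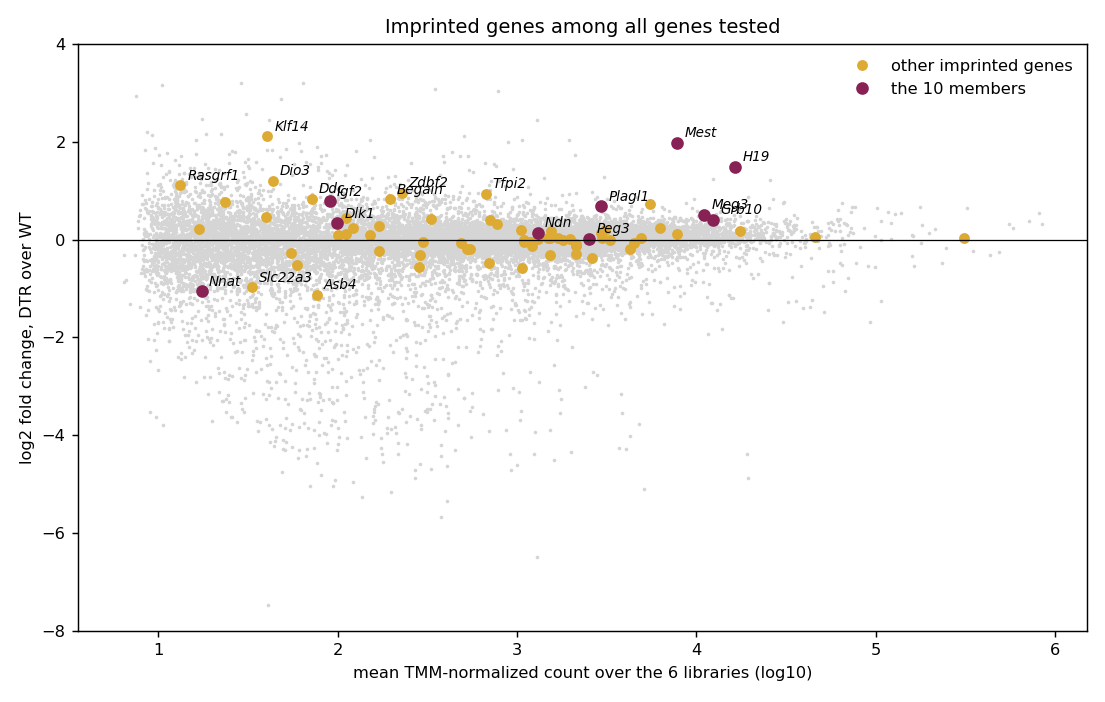
log2 fold change of DTR over WT against the mean TMM-normalized count (log10) for all 17496 genes tested (grey), the 63 other imprinted genes (yellow) and the 10 members (purple). Mest and H19 lay above the other imprinted genes of similar level, and most of the 63 lay near 0. Mest was picked for its higher counts in DTR in these data, so its place here is a description only.

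The IGF axis was the signalling pathway of Igf2 and Grb10. All 21 of its genes were listed and 19 were tested: edgeR called 0, and 1 gene was higher and 0 lower at an unadjusted p under 0.05, beside 5.52% and 5.45% of all genes, with a median of 0.02. That gene was Pappa, a protease that frees IGF from its binding proteins, which read 306, 294 and 241 in the WT libraries and 508, 331 and 590 in the DTR libraries (edgeR adjusted p 0.354). The ligand Igf1, at 48218 to 51974 in WT and 45926 to 73278 in DTR, overlapped between the groups, as did the binding proteins Igfbp5 and Igfbp4.

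Of 12 other fetal growth regulators, 9 were tested, with a median of -0.25. At an unadjusted p under 0.05, 1 was higher and 0 lower. The same 5.52% and 5.45% of all genes stand beside these counts and the imprint maintenance and Notch counts that follow. The higher one was Mdk, the growth factor midkine, at 0.32 (edgeR adjusted p 0.453), or 0.02 with the muscle covariate. Of 18 genes that maintain imprints, 17 were tested, with 1 higher and 0 lower and a median of 0.04. The higher one was Smchd1, a chromatin protein that silences imprinted clusters and the inactive X, at 0.22 (edgeR adjusted p 0.422). The repressors Zfp445 and Trim28 and the methyltransferase Dnmt3a had log2 fold changes of 0.01, 0.05 and -0.02. Among 13 genes related to Notch signalling and the brake on fat cell formation, 1 was higher and 2 were lower at that p. Of the 13, 11 were fitted lower, with a median of -0.23. The higher one was Jag1 at 0.31, and the lower ones were Dll1 at -0.39 and Jag2 at -0.58. Jag2, a Notch ligand, stood at 983, 1019 and 796 in WT and at 581, 696 and 592 in DTR, and was called by DESeq2 (adjusted p 0.0205) but not by edgeR (0.281).

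Fat cell markers were set beside these genes. All 10 adipocyte genes were fitted lower in DTR, with a median log2 fold change of -2.20; 8 had an unadjusted p under 0.05, edgeR called 0 and DESeq2 called 5 lower, beside 5.45% and 1.59% of all genes. Adipoq, which encodes adiponectin and was named after its values were seen, read 96.4, 187 and 273 in the WT libraries and 17.5, 62.2 and 26.7 in the DTR libraries. Their summed share was 0.0166% to 0.0253% of counts in WT and 0.0125% to 0.0182% in DTR, and its relation to Mest and Dlk1 was not tested.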

How the data were processed

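Bulk RNA-seq was performed on FDL tendons of 3 DTR and 3 WT mice. The authors cleaned reads with FastP and counted them per gene with featureCounts; the genome build, annotation and strand setting were not given in the sources used here. 2 library kits are named in the labels. The deposited counts are whole reads per gene, and the deposited normalized signal equals those counts divided by 1 size factor per library (100% of values whole within 0.001), from DESeq2 1.22.1 as the labels name it.

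Counts were tested with edgeR 4.0.16 (TMM, filterByExpr, robust quasi-likelihood test, Benjamini-Hochberg adjustment, threshold 0.05) in R 4.3.3, checked first on simulated data. limma 3.58.1 and DESeq2 1.42.0 were alternatives. DESeq2 was run 3 times. The run used in the report tuned its filtering to 0.05. The other 2, with filtering tuned to 0.1 and then with genes at zero also kept, were tried after the first count had been seen, and the last was tried with the count the study gives in view; the closing section gives every count.

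The members and lists were chosen with earlier results of these data known. Genes named from a list averaged 50 or more normalized counts and had the largest differences at an unadjusted p under 0.05 (up to 4 in each direction), or were the 3 most abundant. Neighbours of a member needed the same minimum level. Not every gene that met these rules is named. Klf14, Dio3, Slc22a3 and Adipoq fall outside these rules and were named after their values were seen. The Xist grouping was added after the data were seen. Exon lengths came from GENCODE vM21 and matched 97.6% of the genes tested. Sequences came from RefSeq GRCm38.p6.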

Additional observations from a re-analysis of the deposited data

How the results depend on the processing

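edgeR called 0 genes, and the count moved with the test: DESeq2 called 472 genes (201 higher, 271 lower), 462 with its filtering tuned to 0.1, and 466 with genes at zero also kept. Without a filter on low counts edgeR called 83. Other imprinted genes called numbered 2 in each DESeq2 run and 1 without the filter. Leaving out 1 library gave 0 to 544 genes called, 0 to 2 other imprinted genes, 0 to 1 IGF axis genes and 0 to 1 fetal growth regulators; every nonzero value came from leaving out DTR 2, and the cause was not tested. The replicate block called 1 gene; the labels do not pair the libraries, and same-numbered libraries correlated at -0.188, -0.149 and -0.684 in their deviations from the group means.

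Mest moved by more than the larger group SD only with the muscle covariate (1.32). With that covariate, some other genes kept their direction but shrank, to 0.02 for Mdk, 0.34 for Pappa and 0.53 for Tfpi2. Herc3 and Asb4 shrank to -0.28 and -0.45 and Klf14 to 1.47, whereas Rian (0.96) and Mirg (0.58) moved away from 0. Dlk1, Peg3 and Ndn changed sign in 2, 10 and 1 of 20 alternatives, with ranges of -0.63 to 0.68, -0.24 to 0.35 and -0.04 to 0.42. Among other genes the direction turned with the muscle covariate for Igfbp4 (-0.18), Igf1 (-0.14), Gpc3 (0.04), Trim28 (-0.09), Dnmt3a (0.05), Notch2 (-0.02), Tnnt3 (0.22) and Tnni2 (0.28), with the keratinocyte covariate for Dcn (-0.09) and Dnmt3a (0.02), with the sex covariate for Zfp445 (-0.03) and with library size scaling for Zfp445 (-0.01). With 1 library left out, values ran from -0.11 to 0.14 for Dcn, -0.09 to 0.04 for Dnmt3a, -0.08 to 0.07 for Zfp445, -0.01 to 0.12 for Trim28, -0.01 to 0.22 for Notch2 and -0.00 to 0.06 for Copg2.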
